A study of Homo sapiens with 27 samples.

Results

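The 8 genes described here encode products that mammary and apocrine glands secrete: PIP, AZGP1, SCGB2A1, SCGB2A2, SCGB1D2, MUCL1, APOD and CLU. They were chosen by name, with earlier results of these data known, as the genes of the count table whose symbol is on this list. They are 8 of the 26485 genes of that table. Of the 8, 4 passed the filter on low counts and could be tested (PIP, AZGP1, APOD and CLU), among 14789 tested genes. SCGB2A1, SCGB2A2, SCGB1D2 and MUCL1 had almost no fragments in any library.

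RNA-seq was performed on T47D, an established human breast cancer line of luminal type that keeps its own wild-type GATA3. Cells were transduced with a lentivirus that carried the empty vector (control) or 1 of 3 truncation mutants of GATA3, named Splice del, C321fs and A333fs, each fused to a 3xTy1 tag. The mutants carry a frameshift within or before the second zinc finger of the protein. Each line was a pool selected with puromycin, so there was 1 pool per mutant, and each pool gave 3 libraries. A property that a pool acquired for another reason cannot be told apart from the effect of its mutant. The growth medium of the sample descriptions, with 15% serum and collagen-coated plates, is not that of the methods. The study calls the libraries of a line biological replicates, and the sample descriptions do not say whether they came from separate cultures of the pool. The p-values measure the spread between these libraries.

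GATA3 is a zinc finger transcription factor that luminal mammary cells need in order to form and to keep their identity. The milk ducts and the apocrine sweat glands are related skin-derived glands, and their cells share a set of small secreted proteins. PIP (prolactin-induced protein, also called GCDFP-15), zinc-alpha-2-glycoprotein (AZGP1), apolipoprotein D (APOD) and the mammaglobins are classical markers of breast and apocrine origin in pathology, and several of them are known to respond to androgen, prolactin or other hormones.

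The libraries held 27872208 to 36788024 counted fragments. GATA3 itself was at 1281 ± 50.8 counts per 1000000 (CPM, SD, n = 3) in control cells. Its mean was 1016 ± 11 CPM for A333fs, 1001 ± 45 CPM for Splice del and 1142 ± 12.5 CPM for C321fs cells, and these counts do not separate the introduced mutants from the gene of the cell. The summed level of 8 luminal markers was 16352 to 19717 CPM in the control libraries and 10307 to 13188 CPM in the mutant libraries. In each mutant line 3 of these 8 were called lower and 0 higher. KRT8 and KRT18, the main luminal keratins, were lower by the test in Splice del and C321fs cells, KRT19 in Splice del and A333fs cells. MUC1 was called lower in C321fs and A333fs cells, and KRT7 in A333fs cells. Of the markers of other cell types, 1 of 8 basal (KRT5), 3 of 8 fibroblast (among them COL1A2), 3 of 8 leukocyte (among them PTPRC) and 4 of 6 endothelial genes (among them PECAM1) had at most 3 fragments in every library. Others moved with the lines. LUM, DCN and CD14 were called higher in Splice del and A333fs cells, ACTA2 and KRT14 in A333fs and TP63 in C321fs cells, whereas COL3A1 was called lower in all 3 lines and COL1A1 and CLDN5 in A333fs cells. The summed basal level was 16.6 to 18.1 CPM in control, 23.2 to 25.9 CPM in A333fs and 15.0 to 21.9 CPM in the other libraries. The fibroblast sum was 53.6 to 65.2 CPM in control and 41.3 to 57.7 CPM in mutant libraries, the leukocyte sum 3.77 to 5.8 and 3.86 to 6.48 CPM, and the endothelial sum 2.15 to 2.57 and 1.35 to 2.81 CPM. The part of these markers in the results below was not tested, and in bulk RNA fewer cells of a type and less RNA per cell cannot be told apart. The scaling of the libraries matters for small changes. With the library size alone in place of the TMM factors, the median log2 value over all tested genes was 0.16 instead of 0.01 for A333fs, 0.22 instead of 0.03 for Splice del and 0.19 instead of 0.02 for C321fs cells. Called genes were then higher than control in 80.2% instead of 44.5%, 92.2% instead of 57.8% and 93.2% instead of 67.2% of cases, respectively.

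The sequences just around the start of the genes are shown first, since GATA3 is a DNA-binding protein. The RefSeq table of promoters (GRCh38.p14) held 6 of the 8 genes, all but APOD and CLU. Each promoter has 250 bases before and 50 bases after the start of a gene. Printed are those of PIP and AZGP1, whose RNA changed in all mutant lines, and that of SCGB2A2, which was silent. Capitals mark AGAT on either strand, so AGAT or ATCT on the strand of the gene. The study reports AGAT as a partial, non-canonical motif at the binding sites of the mutants. At the sites of total GATA3 it found the consensus WGATAA, where W is A or T.
PIP, chr7:143131827-143132126, plus strand: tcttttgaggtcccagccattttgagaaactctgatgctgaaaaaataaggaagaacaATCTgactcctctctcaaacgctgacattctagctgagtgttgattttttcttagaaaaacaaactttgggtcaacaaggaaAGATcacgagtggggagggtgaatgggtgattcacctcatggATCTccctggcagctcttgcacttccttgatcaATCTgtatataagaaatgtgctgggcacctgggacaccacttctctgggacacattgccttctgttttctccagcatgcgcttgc
AZGP1, chr7:99975982-99976281, minus strand: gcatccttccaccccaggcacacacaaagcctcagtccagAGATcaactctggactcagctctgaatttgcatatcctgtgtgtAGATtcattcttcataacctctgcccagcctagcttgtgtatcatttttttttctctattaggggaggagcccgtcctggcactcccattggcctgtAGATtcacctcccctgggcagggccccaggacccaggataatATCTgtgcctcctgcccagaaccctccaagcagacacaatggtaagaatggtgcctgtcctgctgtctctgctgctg
SCGB2A2, chr11:62269908-62270207, plus strand: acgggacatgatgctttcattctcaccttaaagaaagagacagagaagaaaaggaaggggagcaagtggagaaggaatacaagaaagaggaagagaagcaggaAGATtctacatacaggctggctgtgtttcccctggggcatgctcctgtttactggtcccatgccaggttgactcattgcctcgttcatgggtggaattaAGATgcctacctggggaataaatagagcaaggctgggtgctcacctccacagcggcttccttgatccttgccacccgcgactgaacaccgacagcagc

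AGAT occurred 4 times in the promoter of PIP, 4 times in that of AZGP1, 2 times in SCGB2A2, 1 time each in SCGB2A1 and SCGB1D2, and 0 times in MUCL1. Of 27305 promoters of the same length, 70.3% held at least 1 match and 13.6% held at least 4. The longer GATA sites were searched on both strands as well, namely AGATAA and likewise AGATAG, which both contain AGAT, then TGATAA and likewise TGATAG. At least 1 of them was in 25.5% of all promoters and in 0 of these 6. The promoter of PIP also held TTCTTAGAA, a match to the STAT site TTCNNNGAA that occurred in 7.88% of all promoters, and its first base lay at position -144 from the start site. AGAACA, a hormone response half-site found in 14.9% of promoters, lay at -198 in PIP, directly before an ATCT. GGTCA, the estrogen response half-site, was in 37.7% of promoters, with 1 match each in PIP and SCGB1D2. A forkhead site (TGTTTAC or TATTTAC), found in 6.05% of promoters, occurred 1 time in SCGB2A2 and in none of the other 5. These matches of letters are a description and show no binding.

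PIP and AZGP1, the secreted glycoproteins of apocrine cells, were higher than control in all 3 mutant lines. APOD, a lipocalin that carries small hydrophobic molecules, was higher in Splice del cells by the test. CLU, the extracellular chaperone clusterin and by counts the most abundant of the 8, was lower in Splice del and C321fs cells. Called genes have an adjusted p below 0.01 in the quasi-likelihood test of edgeR, adjusted by Benjamini-Hochberg over all tested genes and a fold change over 1.5. In Splice del cells, 3 of the 4 tested genes were called higher, where 6.21% of all tested genes were, and 1 was called lower, against 4.53%. In C321fs cells the numbers were 2 higher, against 4.63%, and 1 lower, against 2.26%. In A333fs cells 2 were higher, against 5.46%, and 0 were lower, against 6.81%, also at an unadjusted p below 0.05 and in DESeq2. DESeq2 made the same calls for the 4 genes in all 6 comparisons. The 2 genes called higher in every mutant line were PIP and AZGP1, and 237 of the 14789 tested genes (1.6%) had that pattern. All 4 differed among the lines in an F-test of any difference, which 56.2% of all tested genes passed at an adjusted p below 0.01. The 3 comparisons with control share the same 3 control libraries. As the members were chosen with earlier results of these data known, these shares are a description and no test of the group.

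**Figure D1:**
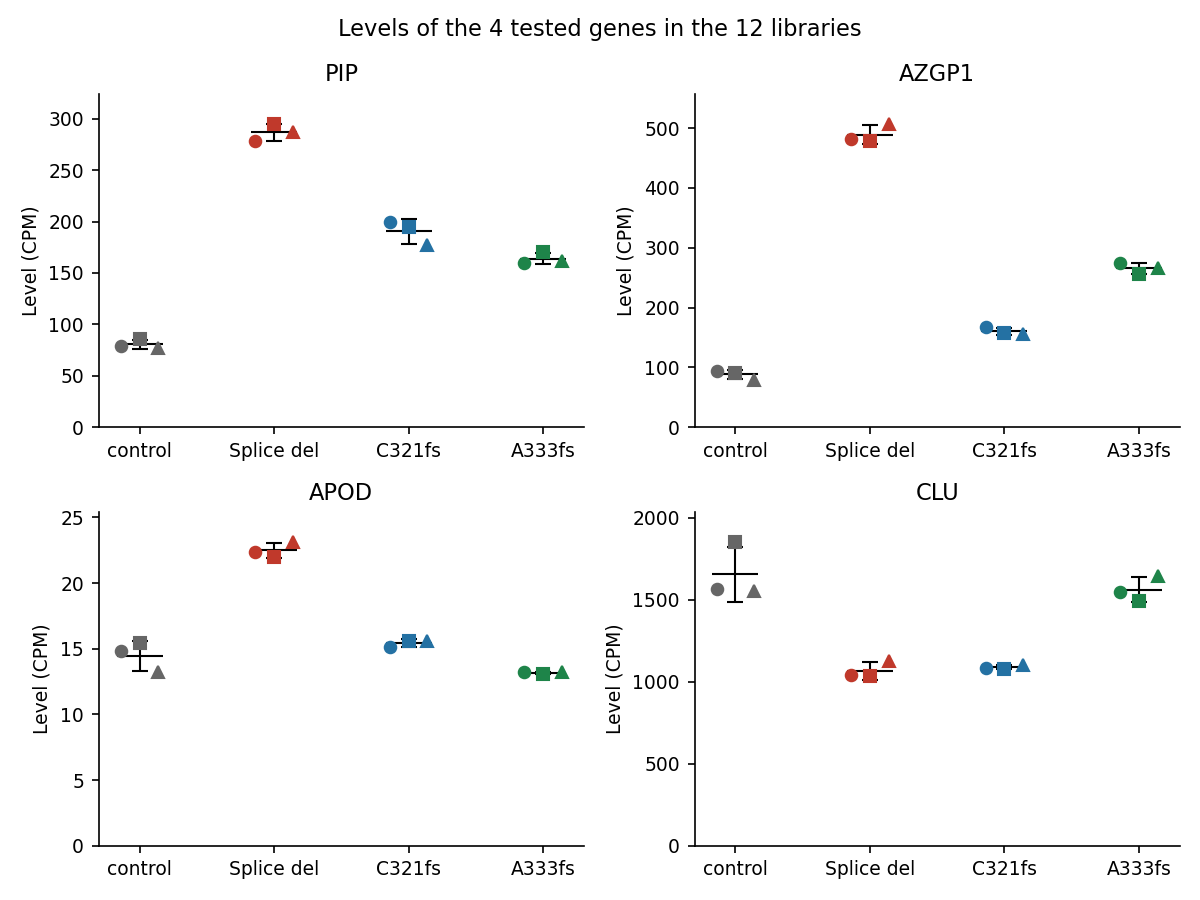
Level in CPM (vertical axis, from 0) of PIP, AZGP1, APOD and CLU in each of the 12 libraries, by line; symbols are libraries, the horizontal bar is the mean and the error bar the SD of 3. PIP and AZGP1 lie above all control libraries in every mutant line, APOD in Splice del cells stands above the other lines, and CLU in Splice del and C321fs cells lies below control and A333fs cells.

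PIP is a small secreted glycoprotein of saliva, milk and apocrine sweat. In the table it lies on chromosome 7 from 143132081 to 143139741 (hg38, plus strand), with 4 exons of 576 bases in all. The 3 control libraries had 79.1, 85.7 and 77.0 CPM. The Splice del libraries had 278, 295 and 287 CPM, the C321fs libraries 200, 195 and 177 CPM, and the A333fs libraries 160, 170 and 162 CPM. The lowest mutant library was thus far above the highest control library, and the 4 lines did not overlap each other. Relative to control, the mean of 80.6 ± 4.54 CPM (SD, n = 3) rose to 287 ± 8.38 CPM in Splice del cells, a 3.56-fold change (log2 1.83, standard error 0.06, adjusted p = 5.44e-12, edgeR's quasi-likelihood test, Benjamini-Hochberg). It rose to 191 ± 12.4 CPM in C321fs cells, 2.37-fold (log2 1.24, standard error 0.06, adjusted p = 1.81e-09, the same edgeR test). It rose to 164 ± 5.33 CPM in A333fs cells, 2.04-fold (log2 1.03, standard error 0.06, adjusted p = 3.51e-09, the same edgeR test). PIP RNA was therefore highest in Splice del cells. Between mutant lines, Splice del was above A333fs cells, where PIP was lower by a log2 of -0.81 (adjusted p = 2.12e-07, edgeR), and above C321fs cells by 0.59 (adjusted p = 3.8e-06, edgeR). The latter fold of 1.5 lies at the limit, and the call was lost without Splice del replicate 2 (0.57) or without C321fs replicate 3 (0.54). A333fs and C321fs cells were not called different, with a log2 difference of -0.22 (standard error 0.06, adjusted p = 0.0116, edgeR), although their libraries did not overlap.

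Per length, on the scale of fragments per kilobase of exon and 1000000 fragments (FPKM), PIP was at 140 ± 7.88 FPKM (SD, n = 3) in control and 498 ± 14.5 FPKM in Splice del cells. By that level it ranked 545th of the 14789 tested genes in control, 151st in C321fs, 178th in A333fs and 97th in Splice del cells. No tested gene lies within 100 kb of PIP, where the table has 4 genes, taste and olfactory receptor genes with at most 1 fragment in any library.

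AZGP1 encodes a secreted, zinc-binding protein with an MHC class I-like fold that is known for its role in lipid mobilization. It is on the minus strand of chromosome 7, from 99966727 to 99976112, with 4 exons of 1265 bases in all. The 3 control libraries had 94.4, 91.1 and 79.4 CPM. The Splice del libraries had 482, 478 and 507 CPM, the C321fs libraries 167, 158 and 156 CPM, and the A333fs libraries 275, 256 and 266 CPM. No line overlapped another, and the order was control, C321fs, A333fs and Splice del from low to high. The mean of 88.3 ± 7.86 CPM (SD, n = 3) in control rose to 489 ± 15.7 CPM in Splice del cells, 5.54-fold (log2 2.47, standard error 0.07, adjusted p = 2.41e-13, edgeR's quasi-likelihood test, Benjamini-Hochberg). In A333fs cells it rose to 266 ± 9.65 CPM, 3.01-fold (log2 1.59, standard error 0.06, adjusted p = 4.88e-11, the same edgeR test). In C321fs cells it rose to 160 ± 6.23 CPM, 1.82-fold (log2 0.86, standard error 0.06, adjusted p = 2.07e-07, the same edgeR test). AZGP1 thus differed between every pair of lines. Splice del exceeded C321fs cells by a log2 of 1.61 (adjusted p = 8.64e-11, edgeR), A333fs exceeded C321fs cells by 0.73 (adjusted p = 3.6e-07, edgeR), and A333fs differed from Splice del cells by -0.88 (adjusted p = 1.52e-07, edgeR). By FPKM, AZGP1 ranked 1299th of the tested genes in control and 124th in Splice del cells.

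**Figure D2:**
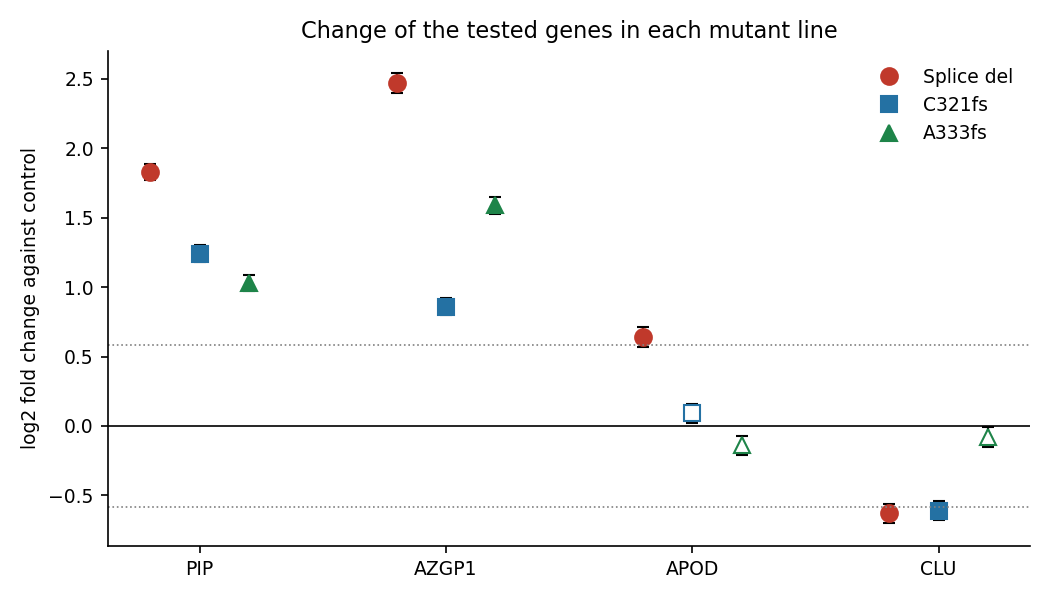
Log2 fold change against control (vertical axis) of the 4 tested genes for Splice del, C321fs and A333fs, with the standard error of the fit as bars; filled symbols passed both thresholds and dotted lines mark a fold change of 1.5. PIP and AZGP1 are above 0 in all 3 lines, with the order of C321fs and A333fs cells swapped between the 2 genes.

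In pairs of mutant lines, 2 of the 4 tested genes were called higher in Splice del than in C321fs cells (1.76% of all tested genes) and 0 lower (0.879%). A333fs against C321fs cells gave 1 higher (2.47%) and 0 lower (3.08%). A333fs against Splice del cells gave 0 higher (1.03%) and 3 lower (1.97%), namely PIP, AZGP1 and APOD. PIP and AZGP1 thus stood in a different order. C321fs cells had more PIP but less AZGP1 than A333fs cells, and of these differences the test called that of AZGP1.

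The ratio of the 2 genes within a library does not depend on how libraries are scaled. AZGP1 counts divided by PIP counts were 1.19, 1.06 and 1.03 in the control libraries, 1.73, 1.62 and 1.77 in Splice del, 1.72, 1.5 and 1.64 in A333fs and 0.835, 0.810 and 0.880 in C321fs libraries. All C321fs libraries lay below, and all Splice del and A333fs libraries above, the control libraries. The mean ratio was 0.842 ± 0.0355 (SD, n = 3) for C321fs, 1.1 ± 0.0859 for control, 1.62 ± 0.109 for A333fs and 1.71 ± 0.0770 for Splice del cells. Each mutant line against control gave p = 0.1 in a two-sided exact permutation test, the smallest p that 3 against 3 libraries allow, so this design cannot reach 0.05. Splice del and A333fs cells overlapped in the ratio (p = 0.4, exact permutation test).

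**Figure D3:**
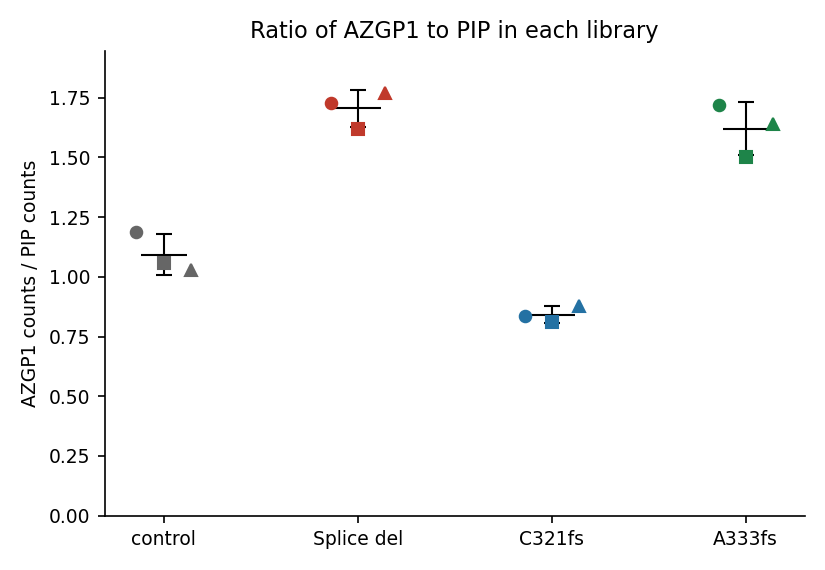
Ratio of AZGP1 counts to PIP counts (vertical axis, from 0) in each library by line; symbols are libraries, bars are the mean and SD of 3. C321fs libraries lie between 0.810 and 0.880, below the control libraries at 1.03 to 1.19, and Splice del and A333fs libraries lie between 1.5 and 1.77.

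Some genes around AZGP1 were called higher in the mutant lines too, most of them in Splice del and fewest in C321fs cells. Within 100 kb of it the table has 7 genes, of which 6 were tested, and all 18 values of these 6 genes in the 3 lines were above 0. Of the 6, 4 were called higher in Splice del cells, 3 in A333fs cells and 2 in C321fs cells. The shares of all tested genes were 6.21%, 5.46% and 4.63%. In each line 0 of the 6 were called lower, beside 4.53%, 6.81% and 2.26%. The values not called in C321fs cells were 0.06 to 0.30. The nearest is AZGP1P1, a pseudogene copy 4650 bases away. It had 18 to 25 fragments in the control libraries and 127 to 177 in the Splice del libraries, and its log2 fold changes of 1.12 for C321fs, 1.44 for A333fs and 2.58 for Splice del cells were all called. A local alignment of the exons of AZGP1 and AZGP1P1 had 85.3% identical bases over 347 aligned bases. The counts of AZGP1P1 were 0.834% of those of AZGP1 in control and 0.754% to 1.00% in the mutant lines, and how far fragments of the gene were counted on its copy was not tested.

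GJC3, a connexin gene 37.1 kb away on the other side, was at 0.817 ± 0.265 CPM (SD, n = 3) in control and 3.19 ± 0.326 CPM in Splice del cells (log2 1.96, adjusted p = 2.6e-06, edgeR). Its calls in C321fs (0.95) and A333fs cells (0.84) were each lost in 4 fits with 1 library left out. ZKSCAN1, a zinc finger gene 39.5 kb away, was at 91.6 ± 2.69 CPM in control, 198 ± 6.31 CPM in Splice del (log2 1.11, called) and 150 ± 5.86 CPM in A333fs cells (0.71, called), with a log2 fold change of 0.30 in C321fs cells that was not called. The call in A333fs cells was lost once the trend with GC content and length was removed (0.56). ZSCAN21, 73.7 kb away, was called in Splice del cells with a log2 fold change of 0.70, but not without control replicate 3 (0.58). TRIM4 and ZNF3 were not called in any line, with values of 0.13 to 0.54. Around the other members, no tested gene within 100 kb was called in any line, and these were 2 genes at APOD, 2 at CLU and 2 at the secretoglobins.

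**Figure D4:**
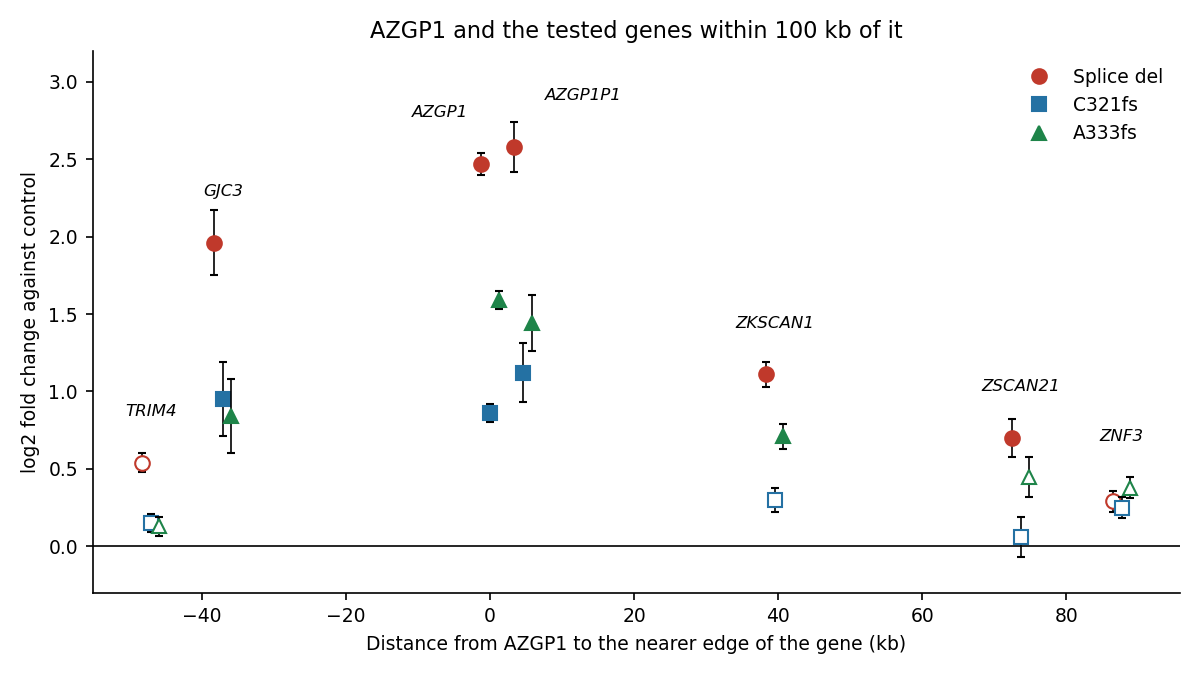
Log2 fold change against control (vertical axis) of AZGP1 and the 6 tested genes within 100 kb, by the distance in kb from AZGP1 to the nearer edge of the gene (horizontal axis); bars are standard errors, filled symbols passed both thresholds, and the lines are set slightly apart in distance so that they can be read. In Splice del cells the values were 2.47 at AZGP1, 2.58 at AZGP1P1, 1.96 at GJC3 and 1.11 at ZKSCAN1, and 0.29 to 0.70 at TRIM4, ZSCAN21 and ZNF3.

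APOD lies on the minus strand of chromosome 3, from 195568702 to 195584205. It was the least abundant of the tested genes, with 381 to 869 fragments per library. The control libraries had 14.8, 15.4 and 13.2 CPM. The Splice del libraries had 22.4, 22 and 23.1 CPM, the C321fs libraries 15.1, 15.6 and 15.6 CPM, and the A333fs libraries 13.2, 13.1 and 13.2 CPM. The Splice del libraries stood above all others, while C321fs and A333fs overlapped control. In Splice del cells the level rose from 14.5 ± 1.13 to 22.5 ± 0.530 CPM (SD, n = 3), 1.55-fold (log2 0.64, standard error 0.07, adjusted p = 2.45e-06, edgeR's quasi-likelihood test, Benjamini-Hochberg). Without control replicate 3, the lowest control library, the value was 0.57 and the call was lost. A test against a fold change of 1.5 lost it as well. In C321fs cells the log2 fold change was 0.09 (standard error 0.07, adjusted p = 0.278, edgeR) and in A333fs cells -0.14 (standard error 0.07, adjusted p = 0.105, edgeR), where its sign depended on the scaling. A333fs differed from Splice del cells by -0.77 (adjusted p = 1.67e-06, edgeR), and the difference of 0.54 between Splice del and C321fs cells was below the fold change limit.

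CLU, on chromosome 8, binds misfolded proteins and lipids outside the cell. Its control libraries had 1563, 1850 and 1552 CPM. The Splice del libraries had 1040, 1032 and 1129 CPM, the C321fs libraries 1082, 1079 and 1102 CPM, and the A333fs libraries 1549, 1492 and 1642 CPM. Splice del and C321fs cells overlapped each other and lay below all other libraries, while A333fs cells overlapped control. CLU fell from 1655 ± 169 CPM (SD, n = 3) in control to 1067 ± 53.8 CPM in Splice del cells (log2 -0.63, standard error 0.07, adjusted p = 2.53e-06, edgeR's quasi-likelihood test, Benjamini-Hochberg). It fell to 1088 ± 12.4 CPM in C321fs cells (log2 -0.61, standard error 0.07, adjusted p = 7.7e-06, the same edgeR test). A333fs cells had 1561 ± 75.5 CPM and differed from control by a log2 of -0.08 (standard error 0.07, adjusted p = 0.299, edgeR), whose sign depended on the scaling. Both calls rested on the fold change limit: without control replicate 2, the highest library, the values were -0.55 and -0.52 and neither was called. With the library size alone both were -0.44, which relative to the median of all genes is -0.66 and -0.62. CLU in A333fs cells was above Splice del cells by a log2 of 0.55 and above C321fs cells by 0.52, short of the fold change limit, with adjusted p-values of 4.63e-05 and 3.52e-05 in edgeR. By FPKM, CLU ranked between 116th and 153rd of the tested genes in the 4 lines, so that in Splice del cells PIP (498 ± 14.5 FPKM) and AZGP1 (387 ± 12.4 FPKM) exceeded CLU (323 ± 16.3 FPKM), whereas in control CLU (501 ± 51.1 FPKM) exceeded PIP (140 ± 7.88 FPKM) and AZGP1 (69.8 ± 6.22 FPKM).

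After each library's dependence on GC content and on exon length was removed, the calls of these 4 genes against control were the same. PIP then had log2 fold changes of 1.77, 1.13 and 0.86 for Splice del, C321fs and A333fs, AZGP1 had 2.58, 0.95 and 1.71, and CLU had -0.65 and -0.59 in Splice del and C321fs cells.

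The secretoglobins and MUCL1 were at or near 0 in every line. SCGB2A2 (mammaglobin A), SCGB2A1 (mammaglobin B) and SCGB1D2 (lipophilin B, which binds mammaglobin) lie together within 64490 bases of chromosome 11. SCGB2A1 had 1 fragment over all 12 libraries, in a Splice del library. SCGB1D2 had 8 fragments in 5 libraries, 3 in C321fs and 5 in A333fs cells, and at most 3 in any of them. MUCL1, a small mucin-like protein of breast, had 7 fragments in 5 libraries and at most 3 in any of them. The control libraries had 0 fragments of SCGB2A1, SCGB1D2 and MUCL1. This allows at most 3 counts, or 0.0850 to 0.0964 CPM per library by total counts, without the TMM factors. SCGB2A2 had 22 fragments over the 12 libraries and more than 3 in only 2 of them: 4 in a control library and 6 in a C321fs library, the highest at 0.208 CPM. No fold is given for these genes, and a difference between lines was not detectable at this depth. In the edgeR fit without a filter on low counts 0 of the 4 were called against control in any line, and at an unadjusted p below 0.05 there was 1 in A333fs cells and 0 in the other lines. The other secretoglobin genes in and near the cluster, SCGB1D1, SCGB1D4 and SCGB1A1, had at most 2 fragments in any library. Luminal T47D cells thus had RNA of the apocrine genes PIP and AZGP1 but hardly any mammaglobin RNA. No library had more than 6 fragments of SCGB2A1, SCGB2A2, SCGB1D2 or MUCL1.

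**Figure D5:**
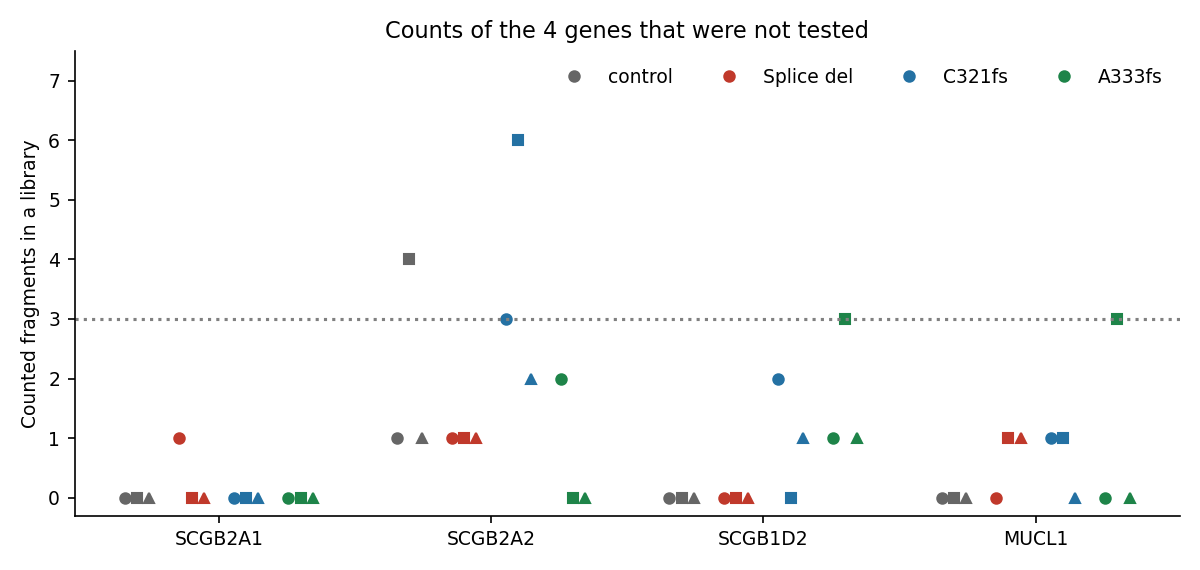
Counted fragments per library (vertical axis) of SCGB2A1, SCGB2A2, SCGB1D2 and MUCL1; symbols are libraries, colours are lines, and the dotted line marks 3 counts. Only SCGB2A2 passes 3 counts, with 4 in a control library and 6 in a C321fs library.

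Related genes were described from 7 lists of secretory and apocrine genes with 106 different genes, of which 56 were tested. Of these, 14 were called higher and 0 lower for Splice del cells, 3 higher and 3 lower for C321fs cells, and 15 higher and 5 lower for A333fs cells. The shares higher were 25.0%, 5.36% and 26.8% of the 56, beside 6.21%, 4.63% and 5.46% of all tested genes, and the shares lower 0.0%, 5.36% and 8.93%, beside 4.53%, 2.26% and 6.81%. The C321fs count higher and the A333fs count lower are thus near the background. In the single lists below, a count of 1 or 2 genes cannot be read against that background. The lists were chosen with earlier results of these data known, so their shares describe the lists and test nothing. The 56 include TFAP2B, UGT2B11, S100A8, ORM2 and APOL1, which had at most 9 fragments in any control library. They passed the filter on low counts through mutant libraries, so the shares higher contain genes selected by being high there. With at least 10 counts required in every library, the number higher in A333fs cells was 9. Of the 56, 11 were below control in Splice del cells at an unadjusted p below 0.05 and DESeq2 called 1 of them lower. The median log2 fold change of the 56 was 0.19, 0.00 and 0.09 in the 3 lines, beside 0.03, 0.02 and 0.01 over all tested genes. The genes named from the lists had 32 called values, of which a test against a fold change of 1.5 lost 22, another alternative lost 7 and leaving out 1 library lost 10.

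The classical milk proteins were silent in these cells. The caseins CSN1S1, CSN2 and CSN3 and alpha-lactalbumin (LALBA) had at most 1 fragment in any library. Of 14 genes of milk and the milk fat globule 3 were tested, and 1 was called, CEL, the bile salt-activated lipase, which fell by 0.98 in A333fs cells from a level of 1.13 ± 0.167 CPM (SD, n = 3). That call was lost with upper-quartile (-0.86) or library-size scaling (-0.83), after the GC and length trend was taken out (-0.54), and in 4 fits without 1 library, namely control replicate 2 or 3 or A333fs replicate 2 or 3 (-0.97 to -0.78). Of 8 other secretoglobins 1 was tested and 0 were called.

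Of 17 apocrine markers 13 were tested, with 4 called higher and 0 lower for Splice del, 1 and 1 for C321fs, and 2 and 2 for A333fs cells. The 4 higher in Splice del cells are 30.8% of the 13, beside 6.21% of all tested genes. Where every library had to have at least 10 counts, 2 were called higher in Splice del and 1 in A333fs cells. The 0 lower in Splice del cells became 1 in DESeq2 and 3 at an unadjusted p below 0.05. The genes named here were those with the largest changes, and all of them rose. SPDEF, also on this list, was called lower in A333fs cells (log2 -0.74) and is described with the regulators below. HPGD, which inactivates prostaglandins, rose in every line, from 2.25 ± 0.150 CPM (SD, n = 3) to 5.68 ± 0.609 CPM in Splice del, 4.85 ± 0.608 CPM in A333fs and 4.37 ± 0.690 CPM in C321fs cells. TFAP2B, a transcription factor of the AP-2 family, had 2 to 5 fragments per control library, 26 to 48 per Splice del, 23 to 30 per A333fs and 8 to 11 per C321fs library, and was called in Splice del and A333fs cells. UGT2B11 rose in Splice del cells, with 2 to 9 fragments in control and 13 to 20 in Splice del libraries. That call was lost in DESeq2 (adjusted p = 0.0127), with a replicate block, after the GC and length trend was taken out (1.27), and in 4 fits without 1 library, namely control replicate 1 or 2 or Splice del replicate 1 or 2 (1.17 to 1.52).

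Of 15 mucins and trefoil factors 8 were tested, with 4 called higher in Splice del cells and 4 in A333fs cells, which is 50.0% beside 6.21% and 5.46% of all tested genes. In C321fs cells 0 were called higher, also in DESeq2, and 2 at an unadjusted p below 0.05. TFF3, a secreted trefoil peptide, was at 62.9 ± 2.50 CPM (SD, n = 3) in control libraries, 162 ± 10.5 CPM in Splice del (log2 1.36, called), 96.1 ± 4.97 CPM in A333fs (0.61, called) and 52.0 ± 10.2 CPM in C321fs cells (-0.28, not called). TFF1 rose in Splice del (0.65) and A333fs cells (1.02). The call of TFF3 in A333fs cells was lost without control replicate 1 (0.58) or A333fs replicate 1 (0.57), and that of TFF1 in Splice del cells without control replicate 1 (0.55). AGR2, a disulfide isomerase needed for mucin folding, was at 1022 ± 64.7 CPM in control and rose in Splice del (0.99) and A333fs cells (0.87), with 0.52 in C321fs cells, which was not called. MUC1, the transmembrane mucin of luminal cells, fell by 0.95 in C321fs and by 0.71 in A333fs cells on the log2 scale, the sole gene of this list called lower. Its call in A333fs cells was lost with library-size scaling (-0.56) and after the GC and length trend was taken out (-0.43).

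Of 20 secreted defence proteins 6 were tested, with 0 called in Splice del and C321fs cells and 3 higher (50.0%, beside 5.46% of all tested genes) and 1 lower in A333fs cells. DESeq2 called 0 in Splice del and 1 in C321fs cells, and edgeR had 2 in each at an unadjusted p below 0.05. With at least 10 counts required in every library, 0 genes of this list were called higher in A333fs cells. S100A8 had 0 fragments in each control library, at most 2 in Splice del and 4 in C321fs libraries, and 12 to 21 in the A333fs libraries. It thus passed the filter on low counts through the A333fs libraries alone. S100A9, its partner in calprotectin, rose from 0.486 ± 0.207 to 1.41 ± 0.0869 CPM (SD, n = 3), and LCN2, a siderophore-binding lipocalin, from 0.460 ± 0.0870 to 1.06 ± 0.273 CPM. CST3 fell by 0.64 on the log2 scale. The call of LCN2 was lost without control replicate 2 (1.08) or A333fs replicate 2 (1.01). That of CST3 was lost without the same libraries (-0.56 and -0.58), with upper-quartile (-0.52) or library-size scaling (-0.49), and after the GC and length trend was taken out (-0.51). Of 16 lipid-binding and chaperone relatives of APOD and CLU 10 were tested, with 5 called higher and 0 lower for Splice del, 1 and 1 for C321fs, and 5 and 0 for A333fs cells. The 5 genes are 50.0%, beside 6.21% of all tested genes in Splice del and 5.46% in A333fs cells. In each of these lines 3 were called higher when every library had to have at least 10 counts. Of the 0 lower, 1 and 2 had an unadjusted p below 0.05 and DESeq2 called 0. APOL6 rose in all 3 lines, by a log2 of 1.53 in Splice del, 1.48 in A333fs and 0.74 in C321fs cells, where the call was lost after the GC and length trend was taken out (0.54). ORM2, an acute-phase lipocalin, APOL1 and SERPINA3, a serpin, rose in Splice del and A333fs cells. The call of APOL1 in A333fs cells (1.51) was lost in 5 fits without 1 library (1.2 to 1.73), namely any control replicate or A333fs replicate 1 or 3. ORM2 had 0 to 4 fragments per control library and 22 to 39 in the Splice del libraries. SERPINA3 was at 0.874 ± 0.355 CPM in control, 2.25 ± 0.185 CPM in Splice del and 2.22 ± 0.367 CPM in A333fs cells.

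Of 20 hormone receptors and lineage regulators 19 were tested. The calls were 2 higher for Splice del, 1 higher for C321fs, and 2 higher and 1 lower for A333fs cells, the largest share being 10.5%. In C321fs cells 0 were called lower, but 10 of the 19 had an unadjusted p below 0.05 in that direction and DESeq2 called 1. In Splice del cells 0 were called lower, with 6 at an unadjusted p below 0.05 and 0 in DESeq2. TFAP2B, described above, is also on this list. STAT5A, which carries the prolactin signal, rose from 1.44 ± 0.446 CPM (SD, n = 3) to 3.04 ± 0.778 CPM in Splice del and 3.01 ± 0.296 CPM in A333fs cells, while its relative STAT5B had 67.9 ± 3.51 CPM in control and log2 fold changes of -0.14, -0.14 and -0.25 for Splice del, C321fs and A333fs, not called. The calls of STAT5A were lost without control replicate 1 (0.84 and 0.85), and that in Splice del cells also without Splice del replicate 3 (0.84). The prolactin receptor PRLR, at 1600 ± 141 CPM in control, had values of 0.31, 0.18 and 0.16 and was not called. ESR1 had 0.23, -0.01 and 0.11, PGR -0.02, -0.24 and -0.07, and NR3C1 0.34, 0.46 and 0.32, and none of these receptors was called in any line. For NR3C1 the fold change limit alone was missed, with adjusted p-values of 0.00703, 0.00104 and 0.00872 in edgeR. SPDEF, an ETS factor of secretory cells, fell by 0.74 in A333fs cells, with -0.38 and -0.34 in Splice del and C321fs cells, and its call was lost after the GC and length trend was taken out (-0.31). BHLHA15 rose in C321fs cells (0.86), the sole call of the list there. It was lost in DESeq2 (adjusted p = 0.0164), with a replicate block (adjusted p = 0.0113) and in 5 fits without 1 library, namely any control replicate or C321fs replicate 1 or 2 (0.72 to 0.89). ELF5, a driver of the milk-secreting lineage, had 0.45, 0.31 and 0.40. FOXA1 had -0.09, -0.30 and -0.38, GATA3 -0.36, -0.17 and -0.33, and XBP1 -0.05, -0.14 and -0.22. The values of TRPS1, TFAP2C, CEBPB, NFIB and CREB3L4 lay between -0.38 and 0.51 in the 3 lines, and none of these 9 regulators from ELF5 on was called. Many fell short of the fold change limit alone: ELF5 had adjusted p-values of 1.76e-06, 9.91e-05 and 4.32e-06 in edgeR. With no fold change limit, 6, 3 and 5 genes of the list were called higher and 4, 5 and 8 lower in Splice del, C321fs and A333fs cells.

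The genes most like each tested member were found by Pearson's correlation of log2 CPM over the 12 libraries, among 12987 genes with a mean of at least 1 CPM. The libraries share their lines and their scaling, so these values describe the pattern. Most like PIP were CPE (r = 0.990), PROS1 (0.988) and BTG1 (0.986). PROS1, the anticoagulant protein S, had log2 fold changes of 1.69, 1.07 and 1.00 for Splice del, C321fs and A333fs, close in size to those of PIP, whereas CPE had 0.58, 0.41 and 0.34. Most like AZGP1 were AZGP1P1 (0.981), TINAGL1 (0.979) and TM4SF1 (0.978), and TINAGL1 had log2 fold changes of 1.51, 0.64 and 1.09. Most like APOD were EFR3B (0.976), ATP2C2 (0.962) and TIMP1 (0.950), and most like CLU were MYL9 (0.970), SMG8 (0.970) and ENO1 (0.969). Between the members, r was 0.902 for PIP and AZGP1, 0.683 for PIP and APOD and -0.801 for PIP and CLU.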

How the data were processed

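RNA-seq counts of 12 libraries of T47D cells were used, 3 for each of 4 lines. Per the file headers and methods, the authors aligned Trimmomatic-trimmed reads to hg38 and deposited raw counts of paired fragments per gene and library from featureCounts 1.6.4, ignoring strand. The aligner is not settled by the sources used here. The ChIP-seq data of the same lines were not analysed here. Members overlap no exon of another gene.

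The quasi-likelihood test of edgeR 4.0.16 (R 4.3.3) ran on genes kept by filterByExpr, with TMM scaling and 1 coefficient for each line. Calls needed a fold change over 1.5 and an adjusted p (Benjamini-Hochberg) below 0.01. CPM and FPKM used TMM library sizes and the deposited exon lengths, but the CPM that a count of 0 allows used total counts. A line was at the floor where none of its libraries exceeded 3 counts, a limit for counting error only. The pipeline was tested on simulated data. Alternatives were RLE, upper-quartile and library-size scaling, other filters, DESeq2 1.42.0, other thresholds, each pair alone, a replicate block, removal of a GC and length trend (loess, span 0.3) and leaving out each library.

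The members and lists were chosen with earlier results of these data known. Named from each list are up to 4 called genes with the largest change, and every tested regulator, except genes not reported here, which stay in the counts; neighbours lie within 100 kb; likeness names 3 genes (log2 CPM, prior count 2). Promoters are from RefSeq (GRCh38.p14).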

Additional observations from a re-analysis of the deposited data

Results flagged for a closer look

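The differences between mutant lines that passed edgeR's quasi-likelihood test were singled out because the lines moved a gene by different amounts against the same control. AZGP1 differed in all 3 pairs, by a log2 of 1.61 for Splice del over C321fs, 0.73 for A333fs over C321fs and -0.88 for A333fs against Splice del cells. PIP differed in 2 pairs, by 0.59 for Splice del over C321fs and by -0.81 for A333fs against Splice del cells. APOD differed between A333fs and Splice del cells by -0.77.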

How the results depend on the processing

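The calls of PIP and AZGP1 against control were the same in all 12 alternatives and in all 12 fits that left out a library, with log2 values of 1.77 to 2.02, 1.13 to 1.41 and 0.86 to 1.17 for PIP and 2.40 to 2.66, 0.79 to 1.03 and 1.52 to 1.74 for AZGP1 in Splice del, C321fs and A333fs cells. For CLU, upper-quartile or library-size scaling and a test against a fold change of 1.5 gave 0 members called lower in Splice del and 0 in C321fs cells. That last test also lost the call of APOD, which left 2 members higher in Splice del cells than in control. Between mutant lines it gave 1 member higher in Splice del than in C321fs, 0 higher in A333fs than in C321fs, and 1 lower in A333fs than in Splice del cells. Having no fold change limit gave 2 higher in A333fs than in C321fs and 1 higher than in Splice del cells. Leaving out a library gave 0 to 1 members lower in Splice del, 0 to 1 lower in C321fs, 1 to 2 higher in Splice del than in C321fs, 1 to 2 higher in A333fs than in C321fs and 0 to 1 higher in A333fs than in Splice del cells. The libraries that mattered for members are named beside those results; in A333fs over C321fs and over Splice del cells, CLU was called higher without A333fs replicate 2 (0.59 and 0.61) and, against Splice del, without Splice del replicate 3 (0.59).

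Of the genes of the related lists, the number higher in Splice del cells, 14 above, was 6 in the test against a fold change of 1.5 and 9 to 15 with a library left out, the lowest without control replicate 1. The number lower there, 0 above, was 1 with RLE or DESeq2, 5 with no fold change limit and 0 to 1 with a library left out (without control replicate 3 or Splice del replicate 2). In C321fs cells the number higher, 3 above, was 8 with upper-quartile scaling, 11 with library size, 6 with no filter, 0 in the test against a fold, 8 at an adjusted p below 0.05 and 8 with no fold limit. The number lower, 3 above, was 5 with RLE, 1 with upper-quartile, 1 with library size, 5 with no filter, 5 with DESeq2, 0 in the test against a fold, 5 with a replicate block, 5 at an adjusted p below 0.05, 8 with no fold limit and 2 to 5 with a library left out (5 without Splice del replicate 1). In A333fs cells the number higher, 15 above, was 9 when every library had to have at least 10 counts, and 4 in the test against a fold. The number lower, 5 above, was 3 with upper-quartile, 2 with library size, 1 in the test against a fold, 1 with the GC and length trend removed, 12 with no fold limit and 3 to 6 with a library left out (3 without control replicate 2 or A333fs replicate 2). The cause of these shifts was not tested.

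Signs changed for values that were called in neither fit. With upper-quartile scaling CLU became 0.03 in A333fs cells, CST3 0.02, PGR 0.07, FOXA1 0.01 and XBP1 0.04 in Splice del, ESR1 0.07 and TFAP2C 0.08 in C321fs, and PGR 0.04 in A333fs cells. With library size alone, APOD became 0.01, CLU 0.07 and PGR 0.07 in A333fs cells, CST3 0.11, STAT5B 0.05, PGR 0.16, FOXA1 0.10 and XBP1 0.14 in Splice del, and STAT5B 0.03, ESR1 0.15, GATA3 0.00, TFAP2C 0.16 and XBP1 0.03 in C321fs cells. With the GC and length trend removed, TRIM4 became -0.04, PRLR -0.06, TRPS1 -0.09 and CEBPB 0.11 in A333fs, PRLR -0.04 and TRPS1 -0.08 in C321fs, and TRPS1 -0.15 and NFIB -0.01 in Splice del cells. Leaving out 1 library gave -0.13 to 0.00 for CLU and -0.84 to 0.32 for UGT2B11 in A333fs and -0.06 to 0.13 for CST3 in C321fs cells.

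The replicate numbers were no pairing. The residuals of same-numbered libraries correlated with a mean r of -0.009 over 18 pairs, 2 of them over 0.1. With a replicate block, PIP (1.83, 1.24 and 1.03) and AZGP1 (2.47, 0.86 and 1.59) kept their values, and no call of a member changed. Depth limits the silent genes, for which a count of 0 allows 0.0815 to 0.108 CPM per library by total counts, without the TMM factors.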
